A study of Mus musculus with 15 samples.

Results

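Immunoglobulin variable (V) segments were examined in mouse pancreas by RNA-Seq. The members were chosen by their counts: they were the genes whose symbol starts with Ighv, Igkv or Iglv and whose raw counts, summed over the 5 libraries of the HC experiment, reached at least 50. Of 348 V segments listed, 189 met this minimum, out of 49585 genes in all. They were 97 of 185 Ighv (heavy chain), 89 of 160 Igkv (kappa light chain) and 3 of 3 Iglv (lambda light chain) segments. The summed counts that chose them ranged from 50 to 19279, with a median of 1166. Just inside the minimum were Igkv2-116 (50 counts), Igkv10-95 (51) and Igkv9-129 (52), and just outside were Ighv2-7 (49), Ighv1-43 (44) and Ighv1-67 (43). The minimum was reached in the HC libraries alone and also in the controls alone by 155 members. It was reached in the controls alone but not in HC alone by 19 members, in HC alone but not in the controls by 11, and only over both groups by 4.

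A B cell builds its antibody genes by joining 1 of many V segments to D and J segments (heavy chain) or to a J segment (light chains), and the joined V region is then transcribed together with a constant region gene. Reads on a V segment in bulk tissue therefore come mostly from B cells and above all from plasma cells, which secrete antibody, so the mixture of V segments reflects which B cell clones the tissue holds. Plasma cells of mucosal and glandular tissues mostly secrete IgA, which is joined by the J chain and carried through the epithelium by the polymeric Ig receptor. Fewer plasma cells and less antibody RNA per cell cannot be told apart in bulk tissue.

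The study asked how HPK1, a kinase of blood cells encoded by Map4k1, acts on acinar cells of the pancreas. HC mice carry an HPK1 transgene and MC mice the kinase-dead form M46, each switched on by Bac-cre, a tamoxifen-inducible Cre under the elastase promoter of acinar cells. KC and KMC mice also carry Bac-cre, and of these only KMC mice carry M46. The labels give the genotype HPK1/B for HC and WT for its controls, both 4 months old. The study's text gives a younger age for these mice than the labels do. KC mice were 15 months old and KMC mice 9 months. All libraries are labelled C57BL/6 and pancreas, and each held RNA pooled from 3 mice. There were 3 HC, 2 control, 2 KMC and 2 KC libraries. The study's text says that HC mice and controls had received cerulein, a peptide that causes acute pancreatitis, the day before harvest, whereas its methods give saline (PBS) for littermate controls. The labels give no treatment, so genotype and treatment may not be separable in the HC experiment. Its text calls the KMC and KC samples pancreatic tumours, where the labels say pancreas. The MC experiment (3 MC and 3 control libraries, 2 months old) was deposited as a table of 15175 genes that lists 0 V segments and 0 immunoglobulin constant genes, so it is not described further.

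Totals ranged from 30208416 to 38745907 counts per library, and a library with 0 counts of a gene may hold up to 3, which is 0.0774 to 0.0993 CPM (the count scaled by the library's total). Intervals and limits cover counting error only. Map4k1 went against the label: it was at 7.28, 5.0 and 7.85 CPM in the libraries labelled HC and at 15.3 and 11.9 CPM in their controls, and every direction drawn from the HC label below carries this doubt. HC 3 and both KC libraries had reads of the Y-linked Ddx3y (47.9, 5.2 and 13.2 CPM) and at most 0.753 CPM of Xist, which silences the X chromosome in females. In the other 6 libraries Ddx3y was not read and Xist was at 504 to 959 CPM. In the KMC and KC experiment, sex and age therefore follow the genotype and cannot be told apart from it. An acinar list of 18 genes took 47010 to 72490 CPM in the HC experiment, 216900 and 428300 CPM in KMC and 537700 and 606500 CPM in KC. A list of 5 genes of the stomach lining (Gkn1, Gkn2, Gkn3, Muc5ac and Tff1), chosen after the data were seen, summed to 5380 to 7167 CPM in libraries labelled HC and to 1492 and 2453 CPM in controls. Gkn3 differed little, at 1194, 1073 and 1101 CPM in HC 1 to 3 against 986 and 891 CPM in the controls. All 5 genes were higher in each library labelled HC than in each control, as were 17.5% of all genes tested, with 0 of the 5 called. Their part in the results on V segments was not tested.

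The Ighv members lie on the minus strand of chromosome 12, the Igkv members on both strands of chromosome 6 (35 plus, 54 minus) and the Iglv members on the minus strand of chromosome 16 (GRCm38). Annotated exon lengths were 338 to 480 bases, with a median of 359, so counts and levels per length rank the segments much alike. Of the members, 6 are annotated as pseudogenes (5 Ighv, 1 Igkv). The sequences shown are the last 120 bases of the annotated transcript (exonic, GENCODE M21, GRCm38, 5′ to 3′), where the capitals run from the codon of the conserved cysteine to the end of the segment, the part that enters the junction with D or J. A cysteine codon was found in this way in 187 of 189 members. The first set holds 3 of the 4 light chain segments with the most summed counts, Igkv1-110 (chr6:68270485-68271267, plus strand), Igkv10-96 (chr6:68631963-68632442, minus strand) and Iglv1 (chr16:19085017-19085500, minus strand). Beside 2 of them stand their nearest relatives, Igkv1-117 (chr6:68121046-68121827, plus strand) and Iglv2 (chr16:19260401-19260859, minus strand), to show how alike members can be.
Igkv1-110: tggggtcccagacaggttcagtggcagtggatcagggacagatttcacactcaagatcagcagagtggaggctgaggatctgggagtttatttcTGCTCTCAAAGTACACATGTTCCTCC
Igkv1-117: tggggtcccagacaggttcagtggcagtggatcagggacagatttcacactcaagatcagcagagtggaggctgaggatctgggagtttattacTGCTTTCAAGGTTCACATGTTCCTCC
Igkv10-96: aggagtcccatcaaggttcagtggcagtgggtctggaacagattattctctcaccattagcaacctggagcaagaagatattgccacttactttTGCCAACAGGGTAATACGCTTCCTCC
Iglv1: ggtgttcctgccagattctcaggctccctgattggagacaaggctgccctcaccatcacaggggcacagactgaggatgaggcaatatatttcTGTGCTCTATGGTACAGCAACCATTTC
Iglv2: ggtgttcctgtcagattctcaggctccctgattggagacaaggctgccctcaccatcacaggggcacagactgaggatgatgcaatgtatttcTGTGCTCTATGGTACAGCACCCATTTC

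Igkv1-110 and Igkv1-117 differ at 4 of these 120 bases, and so do Iglv1 and Iglv2. Over the last 280 bases, the median identity of a member to its nearest listed segment was 95.7% for Ighv and 94.6% for Igkv. A neighbour of at least 97% identity was found for 23 Ighv, 15 Igkv and 2 Iglv members, which held 18.7 to 28.3% of the V counts of a library. Reads that match several segments may have been dropped or split by the counting, so the values of these 40 members are uncertain. Ighv1-62-2 and Ighv1-71 are identical over these 280 bases.

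The second set shows segments of the heavy chain by which 2 libraries stood apart. Ighv1-76 (chr12:115847881-115848331) and Ighv1-9 (chr12:114583569-114584002) had many counts in HC 1 and both controls and at most 1 in HC 2 and HC 3. Ighv3-2 (chr12:114033803-114034233), annotated as a pseudogene, had the opposite pattern. Ighv8-12 (chr12:115647945-115648387) and Ighv5-17 (chr12:113859149-113859670) were low in all 3 libraries labelled HC. All 5 are on the minus strand.
Ighv1-76: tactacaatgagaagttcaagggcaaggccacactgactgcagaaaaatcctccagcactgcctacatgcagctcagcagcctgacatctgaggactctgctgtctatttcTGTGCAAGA
Ighv1-9: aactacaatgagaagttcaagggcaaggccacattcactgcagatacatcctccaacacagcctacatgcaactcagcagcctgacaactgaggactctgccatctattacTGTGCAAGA
Ighv3-2: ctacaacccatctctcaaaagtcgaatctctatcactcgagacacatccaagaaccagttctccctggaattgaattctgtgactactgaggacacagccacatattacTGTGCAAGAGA
Ighv8-12: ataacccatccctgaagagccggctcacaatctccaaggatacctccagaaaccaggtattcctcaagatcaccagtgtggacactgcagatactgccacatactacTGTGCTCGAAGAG
Ighv5-17: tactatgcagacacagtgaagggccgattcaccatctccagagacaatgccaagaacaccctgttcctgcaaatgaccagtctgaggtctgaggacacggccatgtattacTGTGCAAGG

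HC 2 and HC 3 stood apart from the other libraries at Ighv and not at Igkv. Across the 97 Ighv members, Pearson's r of log2(CPM + 1) was 0.817 between HC 2 and HC 3 and 0.798 to 0.812 among HC 1 and both controls. Between these sets it was 0.094 to 0.269. Across the 89 Igkv members, r was 0.715 to 0.826 for all 10 pairs of the 5 libraries. These correlations are over segments of the same libraries and are given as descriptions. The scatter plots of library pairs show the cloud of Ighv segments falling apart for HC control 1 against HC 2, while the Igkv cloud rises together.

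**Figure D1:**
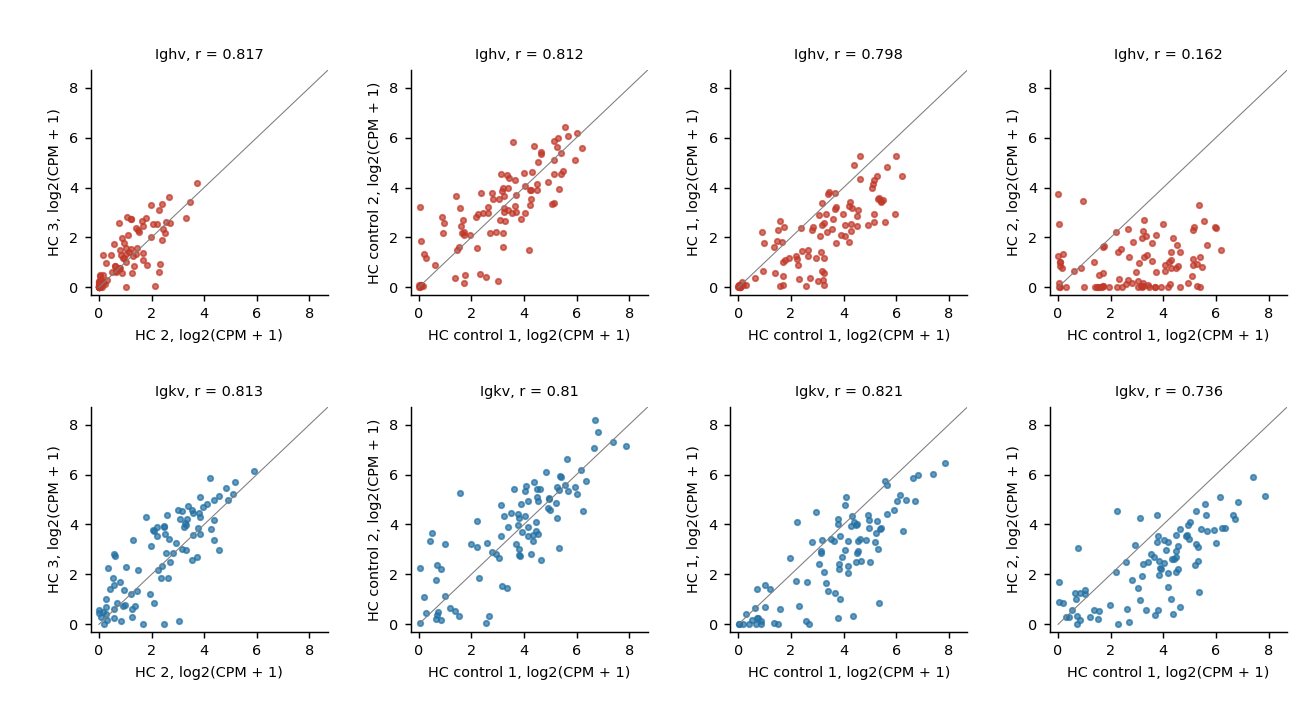
Level of each Ighv segment (top row, red, 97 points) and Igkv segment (bottom row, blue, 89 points) in 4 pairs of libraries, both axes in log2(CPM + 1), with the line of equal levels. Pearson's r stands over each panel: for HC control 1 against HC 2 it was 0.162 at Ighv and 0.736 at Igkv.

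The pattern was one of presence and absence of single segments. In HC 2 and HC 3, 12 Ighv members had at most 3 counts each while HC 1 and both controls had at least 50: Ighv5-9, Ighv2-5, Ighv2-9-1, Ighv5-16, Ighv1-9, Ighv1-20, Ighv1-31, Ighv1-39, Ighv1-62-2, Ighv1-72, Ighv1-76 and Ighv1-84. Ighv1-76, the Ighv segment with the most counts in HC 1, had 1276 counts in HC 1, 839 and 1501 in the controls, and 0 in both HC 2 and HC 3. Ighv1-9 had 357 counts in HC 1, 1344 and 2383 in the controls, and 1 and 0 in HC 2 and HC 3. Ighv1-72 had 343 counts in HC 1, 1455 and 1545 in the controls, and 0 and 1 in HC 2 and HC 3. By assigned counts, each of these segments was thus plentiful in 3 libraries of the experiment and nearly unread in the other 2. Those 2 had 4592 and 6426 Ighv counts in all. Of the 12, Ighv2-5, Ighv1-20, Ighv1-62-2 and Ighv1-72 have a neighbour of at least 97% identity, so their counts are uncertain. Ighv1-62-2 is identical to Ighv1-71 over the bases compared. Ighv1-71 had 15 and 73 counts in HC 2 and HC 3, 13 in HC 1 and 80 and 139 in the controls. Absence of Ighv1-62-2 from HC 2 and HC 3 is thus not shown. There, the nearest segments of Ighv2-5, Ighv1-20 and Ighv1-72 had 0 or 1 counts.

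The reverse held for 6 Ighv members, which had at most 3 counts in HC 1 and both controls and at least 10 in HC 2 and in HC 3. They were Ighv7-2, Ighv8-11 and 4 of the 5 Ighv members annotated as pseudogenes, Ighv3-2, Ighv4-2, Ighv1-14 and Ighv1-21. Ighv3-2 was the Ighv segment with the most counts in both HC 2 (393, or 8.56% of Ighv counts) and HC 3 (547, or 8.51%), against 1, 0 and 3 counts in HC 1 and the controls. Ighv4-2 had 151 and 112 counts in HC 2 and HC 3 and 2, 1 and 1 in HC 1 and the controls. The 6 pseudogene members together had 624 and 770 counts in HC 2 and HC 3, against 13 in HC 1 and 52 and 46 in the controls. With the same thresholds, no other pair of the 5 libraries had Ighv or Igkv members that were low in both and plentiful in the other 3. Reads in a pair alone were found for 2 Ighv members in both controls and for 1 Igkv member in HC 2 and HC control 1. Among Igkv and Iglv members there were 0 of either kind for HC 2 and HC 3.

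The 4 libraries of the KMC and KC experiment had 0 or 1 count of each of the 6 reverse segments, at fewer V counts in all (12342 and 10958 in KMC, 237 and 4142 in KC). Each of the 12 segments listed as low in HC 2 and HC 3 had more than 3 counts in KMC 1 or KMC 2. Ighv1-76 had 58 and 39 counts in KMC and 3 and 66 in KC. The heat map in order along the chromosomes shows the dark columns of HC 2 and HC 3 spread over the Ighv locus.

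**Figure D2:**
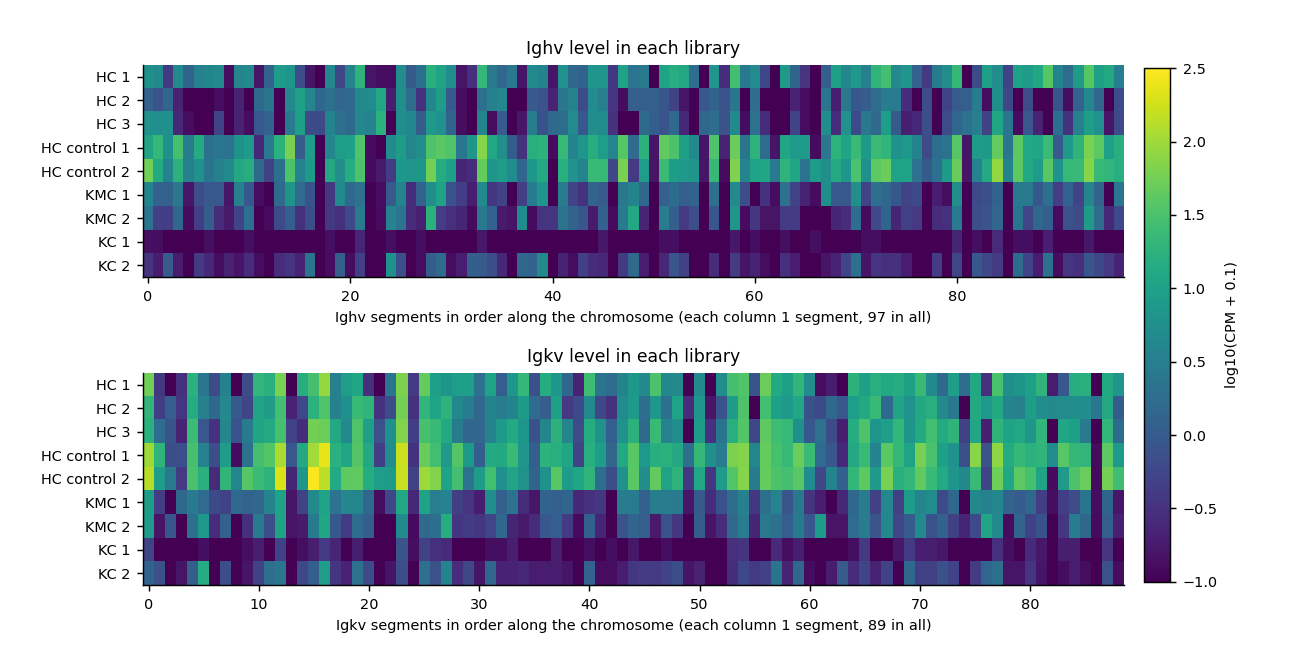
Level of each Ighv (top, 97 columns) and Igkv segment (bottom, 89 columns) in the 9 libraries (rows), in order along the chromosome, coloured by log10(CPM + 0.1). At Ighv, HC 2 and HC 3 share dark columns that are bright in HC 1 and both controls, with 30 and 25 segments at 3 counts or fewer against 15, 9 and 8. At Igkv, all 5 libraries of the HC experiment share their bright columns.

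The heavy chain families differed in share between these libraries. The Ighv1 family, the largest with 49 members, took 21.0% of the V counts in HC 1, 19.1 and 18.9% in the controls, and 4.61 and 5.32% in HC 2 and HC 3. Ighv3 took 1.56% in HC 1, 2.21 and 1.83% in HC 2 and HC 3, and 2.54 and 1.68% in the controls, but in HC 2 and HC 3 the pseudogene Ighv3-2 held most of its counts (393 and 547), while Ighv3-6 had 57 and 124 counts there, 719 in HC 1 and 2558 and 1790 in the controls. All Ighv members together took 33.1% of V counts in HC 1 (95% Wilson interval 32.7 to 33.5%), 16.2% in HC 2 and 15.8% in HC 3, against 35.9 and 33.8% in the controls. Ighv counts per heavy chain constant count were 0.196 in HC 1, 0.0845 and 0.0744 in HC 2 and HC 3, and 0.219 and 0.167 in the controls. For the kappa chain this ratio, Igkv counts per count of the constant gene Igkc, was 0.565, 0.546 and 0.528 in HC 1 to 3 and 0.605 and 0.560 in the controls. The cause of the Ighv pattern was not tested.

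The question of the first comparison was whether V segments differ between HC and control pancreas. Summed over members, V segments were at 1693, 889.5 and 1276 CPM in the libraries labelled HC and at 3725 and 4212 CPM in the controls. The groups did not overlap, and the mean was 3.09-fold lower in the libraries labelled HC (1286 ± 402 CPM, SD, n = 3, against 3968 ± 344 CPM, SD, n = 2). An exact permutation test of 3 against 2 libraries cannot give a 2-sided p below 0.05, so none is given for single sums. Light chain segments were lower in each of the 3 libraries: Igkv members summed to 1068, 685.1 and 1017 CPM against 2237 and 2610 CPM, and Iglv members to 65.4, 59.9 and 57.4 CPM against 153 and 179 CPM. Against the mean of the controls, Igkv was 2.27-fold lower in HC 1, 3.54-fold in HC 2 and 2.38-fold in HC 3. Ighv was 2.46-fold lower in HC 1 and 9.55-fold and 6.83-fold lower in HC 2 and HC 3, the libraries with the different Ighv segments. In HC 1, all V segments together were thus 2.34-fold lower.

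**Figure D3:**
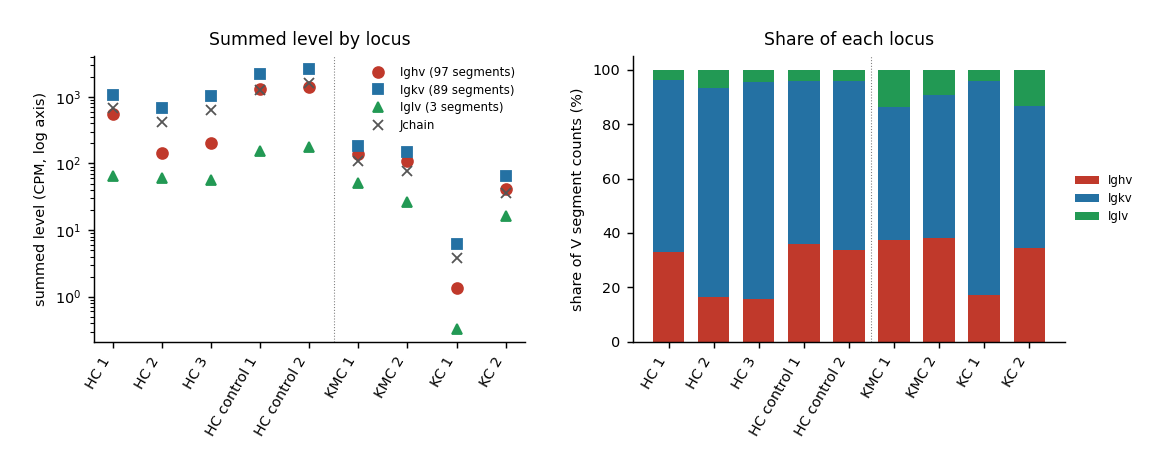
Left, summed level of the Ighv, Igkv and Iglv members and of Jchain in each of the 9 libraries (CPM, log axis), 1 point per library. Right, share of the V counts on each locus (%). In the 3 libraries labelled HC all 4 sums lie below both controls, HC 2 and HC 3 have the smaller Ighv shares (16.2 and 15.8%), and KC 1 has the lowest sums.

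The summed constant genes and Jchain were also at lower levels in the libraries labelled HC, although Ighm and Ighe had positive log2 fold changes (0.33 and 2.51, not called). The 12 immunoglobulin constant genes summed to 4797, 3021 and 4677 CPM in the libraries labelled HC and to 9910 and 13330 CPM in the controls. Jchain, the chain that joins IgA and IgM units, was at 670.6, 425.4 and 638.0 CPM against 1256 and 1619 CPM (log2 fold change -1.28, adjusted p = 0.0714 by the quasi-likelihood test of edgeR, Benjamini-Hochberg adjusted). Relative to Jchain, V counts were 2.53, 2.09 and 2.00 per count in HC 1 to 3 and 2.97 and 2.6 in the controls, a difference of 0.34 on the log2 scale rather than the 1.63 of the summed level. Relative to the constant genes, the groups overlapped, at 0.353, 0.294 and 0.273 against 0.376 and 0.316 V counts per constant count.

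Single members were tested with edgeR's quasi-likelihood test on all genes that passed its filter on low counts, with a call at an adjusted p of at most 0.05 and a log2 fold change of at least 1 in either direction. The filter left 179 of 189 members. Of these, 7 were called lower and 0 higher in the libraries labelled HC, where 0.0978% of 18407 genes tested were called lower, 0.467% higher and 0.565% either way. By sign, 161 members were lower and 18 higher, beside 50.2% and 49.8% of all genes tested. At an unadjusted p under 0.05, 87 members were lower and 6 higher (7.47% and 8.39% of all genes tested, or 15.9% either way). For 102 members every library labelled HC was below both controls, and for 3 every one was above (16.1% and 17.5% of all genes tested, or 33.5% either way). DESeq2 called 45 members lower and 3 higher (1.21% and 1.57% of the genes it tested, or 2.78% either way). These tallies were not restricted to members that reached the minimum in both groups. Of the 189 members, 19 reached it in the controls alone and 11 in HC alone. Part of each tally may therefore rest on the counts that chose the members, whereas all genes tested were not chosen in this way. The median log2 fold change was -1.64 over the members tested, -1.97 over 91 Ighv, -1.26 over 85 Igkv and -1.17 over 3 Iglv, beside -0.001 over all genes tested. Of the 10 members that the filter left out, several had nearly all counts in 1 library, such as 318 counts of Ighv1-49 and 101 of Ighv1-37 in HC control 2, 250 of Ighv3-4 in HC control 1 and 71 of Igkv3-3 in HC 2.

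Among light chain segments, Iglv1, the main lambda segment of the mouse, had 1860, 1606 and 1670 counts in HC 1 to 3 and 4900 and 5843 in the controls, or 54.6, 50.5 and 52.4 CPM against 139 and 155 CPM. It had the smallest adjusted p of the members (log2 fold change -1.45, SE 0.09, adjusted p = 0.0149 in edgeR's test with Benjamini-Hochberg adjustment). Replicates lay close together in both groups. Igkv10-96, the segment with the most V counts in HC 2 and HC 3, was at 63.9, 58.9 and 68.8 CPM against 167 and 159 CPM (log2 fold change -1.32, SE 0.11, adjusted p = 0.0308 in edgeR's test). Igkv12-46 was at 34.9, 33.3 and 36.0 CPM against 70.5 and 72.0 CPM, just past the fold threshold (log2 fold change -1.01, SE 0.09, adjusted p = 0.0336 in edgeR's test). These are 3 segments with little spread among libraries, and none is an Ighv segment.

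Other abundant light chain segments were not called and had more spread. Igkv1-110, the segment with the most V counts in HC 1 and HC control 1, was at 87.5, 34.8 and 51.7 CPM against 233 and 142 CPM (log2 fold change -1.67, adjusted p = 0.133 in edgeR's test). Igkv14-111 was at 29.3, 17.7 and 56.9 CPM against 104 and 293 CPM (log2 fold change -2.48, adjusted p = 0.121 in edgeR's test), and in HC control 2 it was the leading segment with 6.97% of V counts. Igkv1-117 was at 62.2, 28.8 and 30.5 CPM against 113 and 205 CPM, and Igkv1-135 at 56.9, 19.9 and 17.4 CPM against 99.5 and 132 CPM. In all 4 the libraries labelled HC lay below both controls, and the controls differed most in Igkv14-111. Iglv2 and Iglv3, the minor lambda segments, were at 3.67, 7.17 and 1.85 CPM against 7.53 and 11.9 CPM and at 7.11, 2.23 and 3.17 CPM against 5.86 and 12.9 CPM, and neither was called. Igkv4-91 was at 6.28, 18.4 and 13.2 CPM against 7.76 and 10.5 CPM, groups that overlap, as they do for Iglv3.

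Of the heavy chain segments, 4 were called lower. Ighv5-17 was at 6.72, 4.31 and 2.70 CPM in HC 1 to 3 and at 61.2 and 33.6 CPM in the controls (log2 fold change -3.35, SE 0.42, adjusted p = 0.0428 in edgeR's test). Ighv8-12, the Ighv segment with the most counts in HC control 2, was at 5.17, 5.38 and 11.4 CPM against 46.2 and 85.5 CPM (log2 fold change -3.13, SE 0.41, adjusted p = 0.0449 in edgeR's test). Ighv10-3 was at 6.75, 4.84 and 5.18 CPM against 14.9 and 23.1 CPM (log2 fold change -1.73, SE 0.24, adjusted p = 0.0449 in edgeR's test). In these 3 segments all libraries labelled HC lay below both controls. Ighv2-6 had 1, 0 and 0 counts in the libraries labelled HC and 71 and 172 in the controls (adjusted p = 0.0341 in edgeR's test). With 3 counts put in for each library labelled HC, it was 35.6-fold lower there. The limit of 3 holds for 0 counts and HC 1 had 1, so this is not a strict lower bound. Ighv2-6 reached the minimum of 50 summed counts through the controls alone, so its fold rests on the counts that chose it.

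Some abundant heavy chain segments that were not called showed HC 1 between the controls and the other 2 libraries. Ighv1-76 did not, with 1276 counts in HC 1 and 839 and 1501 in the controls. Ighv1-81, the Ighv segment with the highest mean level, was at 37.3 CPM in HC 1, 4.22 and 9.04 CPM in HC 2 and HC 3, and 63.2 and 72.2 CPM in the controls. Ighv1-26 was at 27.1 CPM in HC 1, 2.23 and 4.55 CPM in HC 2 and HC 3, and 49.7 and 66.7 CPM in the controls. Ighv3-6 and Ighv9-3 followed the same order, with 21.1 and 16.4 CPM in HC 1, 1.79 to 7.47 CPM in HC 2 and HC 3, and 34.0 to 72.7 CPM in the controls. Their log2 fold changes of -1.97, -2.33, -2.72 and -2.27 had adjusted p of 0.136 to 0.3 in edgeR's test, and the libraries labelled HC differed widely among themselves.

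**Figure D4:**
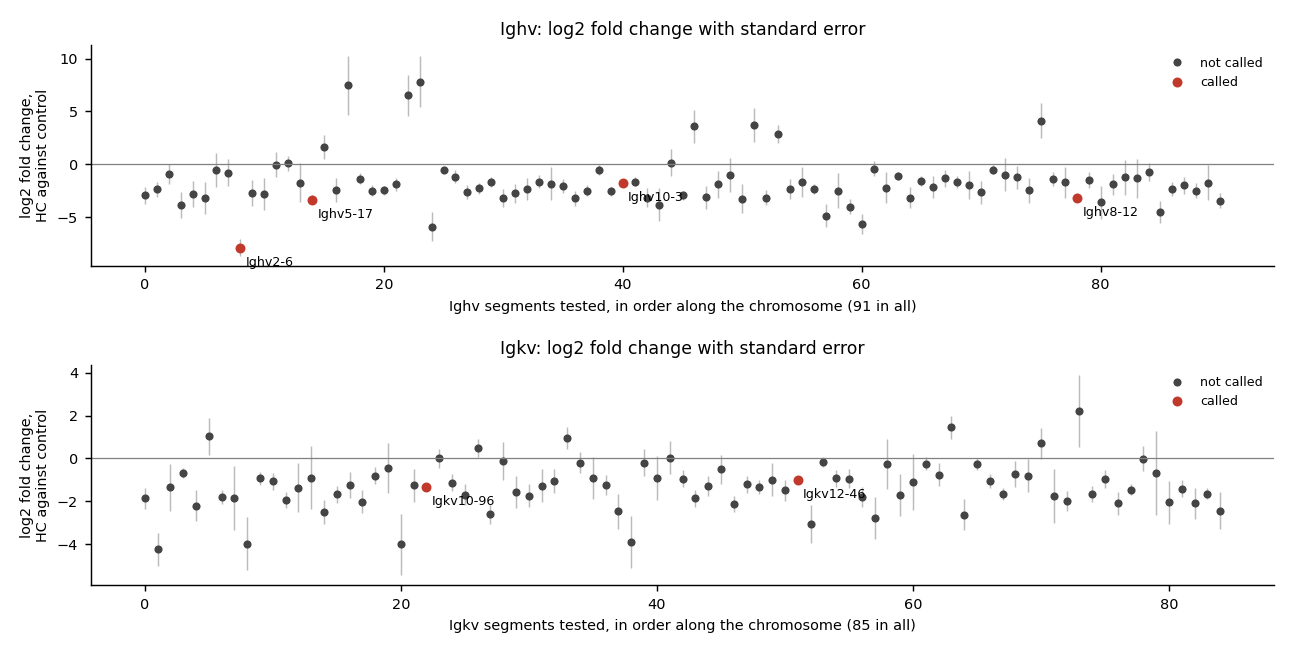
Log2 fold change of each tested Ighv (top, 91 segments) and Igkv segment (bottom, 85 segments), libraries labelled HC against controls, in order along the chromosome, with the standard error as bars and called segments in red with their names. Most points lie below 0 (81 of 91 Ighv, 77 of 85 Igkv), and the few high Ighv points include segments with nearly all counts in HC 2 and HC 3, such as Ighv3-2 at 7.82.

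The calls depended on single libraries. Without HC 1, 68 members were called lower and 5 higher, 54 of the 73 being Ighv (2.09% of genes tested were called), and these included all 7 called with all libraries. With HC 1 alone against both controls, a fit chosen after the data were seen in which the spread comes from the controls, 21 members were called lower and 1 higher (0.466% of genes tested were called), of which 8 were Ighv and 13 Igkv. The calls with HC 1 alone included 4 of the 7: Iglv1, Igkv10-96, Ighv5-17 and Ighv8-12. Without HC 2, 0 members were called, as were 0 of all 18223 genes tested, so this count is not particular to V segments. Without HC 3, Igkv4-59 alone was called (0.0165% of genes tested). Leaving out a control leaves 1 library in that group, so only the effect size is given. The median log2 fold change of the members was -1.68 without HC control 1 and -1.39 without HC control 2. The median log2 fold change of the members tested stayed between -1.97 and -1.39 in these 6 fits. The share of all genes called was 0.516% with DESeq2 size factors, 0.522% with library size alone, 0.532% without immunoglobulin and acinar genes in the scaling, 1.26% without the filter on low counts, 0.653% with a stricter one, 0.00535% with all 9 libraries in 1 fit and 1.84% with the replicate number as a block.

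Other B lineage genes gave the setting, from lists chosen with earlier results of these data known. Of all genes tested, 50.2% had a negative log2 fold change, 0.0978% were called lower and 0.565% were called either way. Of 12 immunoglobulin constant genes, 10 had a negative log2 fold change in the libraries labelled HC, and 1, the lambda constant gene Iglc3, was called lower (2.00, 1.07 and 1.32 CPM against 15.0 and 7.96 CPM, log2 fold change -2.95, adjusted p = 0.0449 in edgeR's test). Of 11 plasma cell genes, 10 were negative and 2 were called lower. Mzb1, which helps the assembly of antibody chains in the endoplasmic reticulum, was at 13.3, 10.1 and 12.4 CPM against 28.0 and 36.3 CPM, and Pou2af1, a coactivator of immunoglobulin promoters, was at 12.9, 12.1 and 14.8 CPM against 25.6 and 33.6 CPM. Of 15 B cell genes, 14 were negative and Cd79a, a signalling chain of the B cell receptor, was called lower (6.52, 6.57 and 7.19 CPM against 13.9 and 20.5 CPM). The summed B cell list overlapped between groups (152, 72.2 and 63.9 CPM against 116 and 109 CPM), with Spib alone at 116 CPM in HC 1. No gene of 8 T cell, 4 germinal centre, 9 survival and homing, 5 lymph node stroma and 18 acinar genes tested was called. The recombinase genes Rag1 and Rag2, which join V segments in developing B cells, were at most at 0.106 CPM in every library. With Dntt, also on this list, the sum was 0.0881 to 0.439 CPM in the libraries labelled HC and 0.313 and 0.185 CPM in their controls. It was 0.153 and 0.852 CPM in KMC and at most 0.0590 CPM in KC, and 0 genes of this list passed the filter.

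The class of the heavy chain was mostly IgA in the HC experiment. Per kilobase of exon, Igha took 88.6, 76.4 and 85.4% of the heavy chain constant counts in HC 1 to 3 and 92 and 63.3% in the controls. HC control 2 differed from the others by its IgG2b, with 22.6% on Ighg2b (76939 counts) against 1.69 to 3.56% in the other 4 libraries. It was also the library in which Igkv14-111 led. Ighm, the class of B cells before switching, took 15.9% in HC 2 and 1.65 to 5.36% in the other 4. Pigr, the receptor that carries IgA through the epithelium, was at 1079, 545.4 and 452.7 CPM against 586.9 and 329.5 CPM, with groups that overlap.

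No segment dominated in the HC experiment. The leading segment took 5.17 to 6.97% of V counts in each of the 5 libraries, and the 10 leading segments 31.0 to 35.8%. It took 19 to 25 segments to reach 50% of the counts. The effective number of segments, the number of equally used segments that would give the same sum of squared shares, was 59.8, 47.5 and 51.4 in HC 1 to 3 and 59.5 and 53.2 in the controls, so these values overlapped. Within the 97 Ighv members alone it was 36.0, 31.5 and 32.6 in HC 1 to 3 and 42.2 and 39.1 in the controls, and within Igkv it was 31.5, 35.1 and 37.4 against 29.2 and 26.4. The share of the kappa locus was 63.1, 77.0 and 79.7% in HC 1 to 3 and 60.1 and 62.0% in the controls, and it was HC 2 and HC 3 that were high.

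The second comparison asked how the same segments differ between KMC and KC. V segments summed to 376.6 and 282.8 CPM in KMC and to 7.85 and 122 CPM in KC, so the mean was 5.07-fold higher in KMC (330 ± 66.3 CPM, SD, n = 2, against 65.0 ± 80.8 CPM, SD, n = 2). KC 1 had 237 V counts in all and KC 2 had 4142. As a fold, though not in CPM, the KC libraries differed from each other by more than the group means did. Without KC 1 the difference of the sums was 1.43 on the log2 scale rather than 2.34. Acinar genes took a smaller part of the counts in KMC, as given above, and when libraries were scaled by the trimmed mean of M values (TMM) the V sums were 303 and 130 CPM in KMC against 16.1 and 160 CPM in KC, which overlap. Relative to the summed B cell list, V counts were 8.14 and 4.22 per count in KMC and 4.84 and 8.95 in KC, and here the mean was lower in KMC by 0.16 on the log2 scale.

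Of the 189 members, 115 passed the filter on low counts here and 0 were called in either direction by edgeR (of 15733 genes tested, 0.00636% were called higher, 0.0127% lower and 0.0191% either way). At an unadjusted p under 0.05, 43 were higher and 0 lower in KMC (16.1% and 9.48% of all genes tested, or 25.6% either way). DESeq2 called 18 higher and 0 lower (9.93% and 3.86% of the genes it tested, or 13.8% either way). Both KMC libraries were above both KC libraries for 58 members and below for 0, where 34.4% of all genes tested were above, 30.9% below and 65.3% either. By sign, 101 were higher and 14 lower, beside 51.3% and 48.7% of all genes tested. Without KMC 1, 6 members were called higher and 3 lower (13.6% of genes tested were called), and without KMC 2, 5 higher (0.477%). In each of these fits the spread comes from the KC libraries, and the lone KMC library is assumed to vary like them. The share of all genes called was 0.0191% with DESeq2 size factors and also without immunoglobulin and acinar genes in the scaling, 30% with library size alone, 0.0323% without the filter on low counts, 0.0225% with a stricter one, 17.3% with all 9 libraries in 1 fit and 15.7% with the replicate number as a block. The median log2 fold change was 1.75 over the members tested and 0.03 over all genes tested. Of the members, 8 had no count in any of the 4 libraries, all of them Ighv, and 20 were above 3 counts in every one.

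The smallest adjusted p among members was 0.0796 in edgeR's test with Benjamini-Hochberg adjustment, for Ighv1-26 and Igkv3-4. Ighv1-26 had 149 and 255 counts in KMC and 2 and 11 in KC (log2 fold change 3.47, SE 0.65). Igkv3-4 had 69 and 54 counts in KMC and 0 and 1 in KC. With 3 counts put in for each KC library it was 18.6-fold higher in KMC, which is not a strict lower bound, as KC 2 had 1 count. Both KC libraries had almost no reads of these segments. Igkv6-23 was at 3.78 and 4.52 CPM in KMC and 0.0993 and 0.354 CPM in KC (log2 fold change 2.86, SE 0.64, adjusted p = 0.0825 in edgeR's test). Ighv10-1, Igkv1-135 and Ighv1-15 came next, with log2 fold changes of 4.12, 2.12 and 2.91 and adjusted p of 0.0948, 0.0981 and 0.103 in the same test. Of 8 T cell genes, 8 were higher in both KMC libraries than in both KC libraries (34.4% of all genes tested) and 0 were called, and Cd4 was at 4.79 and 8.83 CPM against 0.298 and 0.560 CPM. Of 14 B cell genes tested, 13 were higher in this sense and 0 were called. By flow cytometry in younger mice, the study reported fewer T cells in KMC than in KC and no significant difference in B cells. Those are cell numbers at another age, whereas the values here are RNA levels in bulk tissue.

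Levels in the KMC and KC libraries stand beside those of the HC experiment as values, since the experiments are separate and were not tested against each other. Lambda segments took 13.7 and 9.29% of V counts in KMC and 4.22 and 13.3% in KC, against 3.86 to 6.74% in the HC experiment. Iglv1 led in KMC 1 with 1117 counts, 9.05% of V counts. Iglv2 had 519 and 568 counts in KMC and 194 in KC 2, which is 4.21, 5.18 and 4.68% of V counts, whereas it took 0.145 to 0.806% in the HC experiment. The class was mostly IgM: per kilobase of exon, Ighm took 55.2 and 52.4% of heavy chain constant counts in KMC and 92.5% in KC 2, while KC 1, with 350 such counts in all, had 23.1%.

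The third set of sequences shows 4 segments that stood out in these libraries, chosen after their values were seen. Ighv11-2 (chr12:114048241-114048812, minus strand) with Igkv14-126 (chr6:67896172-67896642, plus strand), and Ighv12-3 (chr12:114366521-114366954, minus strand) with Igkv4-91 (chr6:68768555-68769103, minus strand), are known as the heavy and light segments of phosphatidylcholine-binding antibodies, which are frequent among B-1 cells, an innate-like class of B cells that secretes natural IgM.
Ighv11-2: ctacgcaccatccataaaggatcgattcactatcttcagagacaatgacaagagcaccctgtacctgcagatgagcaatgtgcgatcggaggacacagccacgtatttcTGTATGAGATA
Igkv14-126: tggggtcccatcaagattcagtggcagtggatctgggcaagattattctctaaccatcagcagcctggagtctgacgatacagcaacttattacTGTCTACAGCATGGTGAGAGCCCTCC
Ighv12-3: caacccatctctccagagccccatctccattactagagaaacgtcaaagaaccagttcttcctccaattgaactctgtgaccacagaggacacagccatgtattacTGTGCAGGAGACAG
Igkv4-91: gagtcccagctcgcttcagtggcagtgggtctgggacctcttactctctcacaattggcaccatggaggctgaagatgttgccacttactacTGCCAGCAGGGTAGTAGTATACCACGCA

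In KC 2, Igkv14-126 was the leading segment of all with 496 counts, 22.9% of the Igkv counts (95% Wilson interval 21.2 to 24.7%), and Ighv11-2 was the leading heavy chain segment with 203 counts, 14.2% of the Ighv counts (12.5 to 16.1%). In KMC 2, Igkv4-91 led the Igkv locus with 558 counts, 9.70% (8.97 to 10.5%), and Ighv12-3 had 192 counts, 4.58% of Ighv (3.99 to 5.26%). KMC 2 also had 3.17% of its Ighv counts on Ighv11-2 and 4.87% of its Igkv counts on Igkv14-126, and KC 2 had 3.36% on Ighv12-3 and 5.82% on Igkv4-91. In KMC 1 the 4 shares were lower, at 0.627% for Ighv11-2, 0.846% for Igkv14-126, 0.260% for Ighv12-3 and 1.87% for Igkv4-91. KC 1 had too few counts to be placed, with 1 count of Ighv11-2 (2.44%, interval 0.432 to 12.6%) and 5 of Igkv4-91 (2.69%, 1.15 to 6.14%). In the 5 libraries of the HC experiment, Ighv11-2 and Ighv12-3 held at most 0.368 and 0.0892% of the Ighv counts and Igkv14-126 at most 0.630% of the Igkv counts. Igkv4-91 held 2.69% in HC 2 and 0.347 to 1.3% in the others. Sums over a bulk library do not show which heavy and light segments were expressed in 1 cell. Ighv11-2 is 98.6% identical to Ighv11-1 over the last 280 bases, so reads could be split between them.

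**Figure D5:**
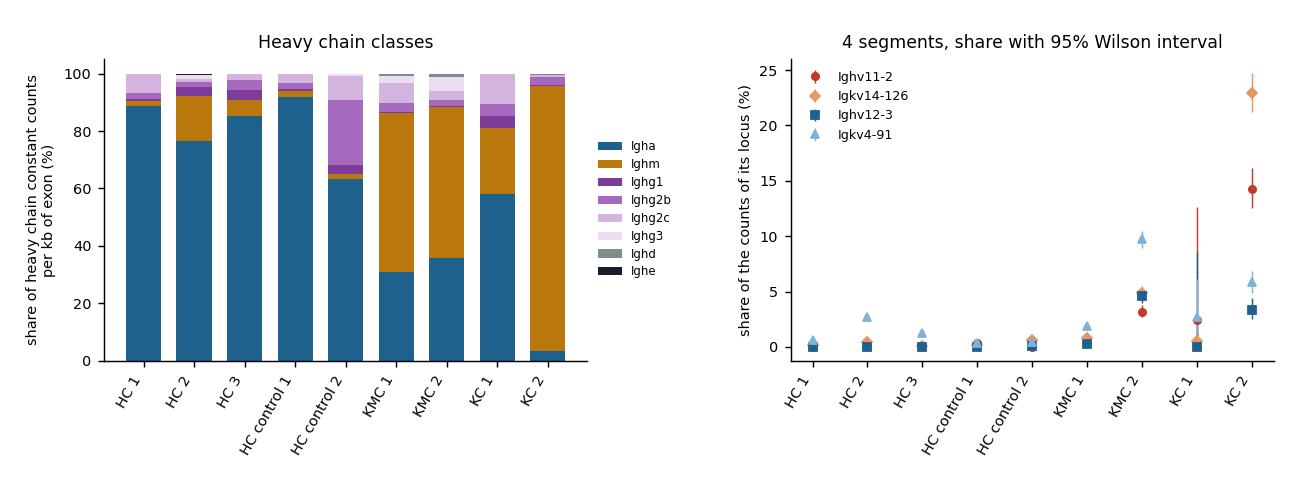
Left, share of each heavy chain constant gene per kilobase of exon (%) in the 9 libraries. Right, share of Ighv11-2 and Ighv12-3 in the Ighv counts and of Igkv14-126 and Igkv4-91 in the Igkv counts (%), with 95% Wilson intervals. Igha leads in the HC experiment and KC 1, Ighm leads in KMC and KC 2, and the 4 segments are high in KMC 2 and KC 2, with Igkv14-126 at 22.9% in KC 2.

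Evenness differed among the KMC and KC libraries. The 10 leading segments took 34.1 and 42.5% of V counts in KMC and 45.6 and 49.0% in KC, and 22 and 13 segments in KMC and 12 and 11 in KC reached 50% of the counts. KMC 1 lay within the range of the HC experiment on both measures. The effective number of segments was 48.3 and 40.6 in KMC and 32.3 and 26.1 in KC, higher in both KMC libraries. In KC 1, with 237 V counts, 169 members had 3 counts or fewer, so its value rests on few reads. Ighv9-3 led all segments in KMC 2 with 671 counts, 16.0% of its Ighv counts, against 170 counts in KMC 1.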

How the data were processed

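RNA-Seq was performed by the authors on pancreas RNA pooled from 3 mice per library. Per the study's methods, paired-end reads from a stranded protocol were aligned with STAR to the mouse genome (GRCm38, mm10) and summarised on GENCODE genes. The submitters' processing notes name STAR 2.6.1a and HTSeq 0.6.1. The authors deposited raw read counts per gene without normalization, and also a table of their own comparison of MC with control (log2 fold changes and p-values), which was not used. How reads that match several V segments were treated is not given in the sources used here.

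The members and gene lists were chosen with earlier results of these data known. Groups came from the labels, and 1 allele that KC and KMC share is not reported here. Positions, symbols (49326 of 49585 identifiers matched) and sequences came from GENCODE M21, with a transcript for 189 of 189 members. Levels are CPM on total counts unless TMM is named. Low genes were removed by filterByExpr and libraries scaled by TMM. Each pair of groups was then compared by the quasi-likelihood test of edgeR 4.0.16 under R 4.3.3, with Benjamini-Hochberg adjustment over all genes tested. Simulated data were used to check that the test recovers the median fold change, and no limit was set there on false calls. The SE came from the fold change and the F statistic. Totals were 31791225 to 37829604 counts in the HC experiment and 30208416 to 38745907 in the other. Replicates were separate pools by their labels, so p-values measure the spread between pools. Shares have 95% Wilson intervals.

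Named segments were the 5 with the highest mean CPM per locus, all called in HC, the 6 with the smallest p in KMC, those with at least 5% of V counts in any library, and the 3 on either side of the minimum. Other segments were named after their values were seen. The segments listed for HC 2 and HC 3 were found by thresholds of 3, 10 and 50 counts, also chosen after the values were seen. Alternatives were DESeq2 1.42.0, other scalings and filters, 1 fit of all 9 libraries, the replicate number as a block and leaving out each library.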

Additional observations from a re-analysis of the deposited data

How the results depend on the processing

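The count of members called in the libraries labelled HC was 7 and stayed 7, with the same genes, under DESeq2 size factors, library size alone, TMM without immunoglobulin and acinar genes and a stricter filter. In these fits 0.516 to 0.653% of all genes tested were called. It was 48 with DESeq2, 65 without the filter on low counts, 0 with all 9 libraries in 1 fit, 22 with HC 1 alone and 0 to 73 when 1 library was left out. For KMC against KC it was 0 of 115 members tested. DESeq2 called 18 of 117 (13.8% of all genes it tested), library size alone 75 of 115 (30%) and all 9 libraries in 1 fit 10 of 183 (17.3%). Library size alone moved the median of all genes by 1.44 on the log2 scale in KMC against KC. With the replicate number as a block, 54 of 179 members were called in HC (1.84% of all genes tested) and 18 of 115 in KMC (15.7%). The KMC counts with DESeq2, all 9 libraries and the block were near or below the share of all genes called either way. The labels pair no libraries. Deviations of same-numbered libraries from their group means had r of 0.189 and 0.17 in HC and 0.051 in KMC. In a group of 2 libraries these deviations mirror each other, so r with the other library is the same with the sign turned. These values therefore cannot show whether libraries are paired.

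The summed level (log2 difference -1.63) was -1.87 to -1.42 when 1 library was left out, -1.23 with HC 1 alone, -0.34 relative to Jchain and -0.17 relative to the constant genes. For KMC against KC (2.34) it was 1.43 to 5.39 when 1 library was left out, with 5.39 without KC 2, -0.16 relative to the B cell list, which reverses the direction, 0.37 relative to Jchain and 0.12 relative to the constant genes. The comparisons with HC 1 alone, Jchain and the constant genes were chosen after the data were seen. The causes were not tested. The remaining alternatives for sums, kappa shares and effective numbers moved by less than the spread between replicates, which for the KMC and KC sums is 1.99 on the log2 scale. The 7 called segments kept their direction under all 14 alternatives, and each lost its call in 5 or 6 of them. With 1 control left out, the lone control is assumed to vary like the HC libraries. At 3 counts, segments under 0.0993 CPM could not be told from absent.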

Other observations

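T cell receptor V segments were far fewer than those of immunoglobulin: 4 of 163 listed reached 50 summed counts in the HC experiment. All 163 summed to 9.84, 3.11 and 2.57 CPM in HC 1 to 3 and to 8.50 and 4.94 CPM in the controls, so HC 1 was near the controls. The T cell list of 8 genes summed to 53.9, 19.2 and 19.3 CPM against 67.3 and 36.5 CPM, and 0 of its genes were called.

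Outside the V segments, few genes separated HC 2 and HC 3 from the other libraries of the experiment by presence and absence, with the same thresholds. Of 49396 other genes, 2 had at most 3 counts in both and at least 50 in HC 1 and both controls, and 6 had the reverse. Gm7897, a pseudogene on chromosome 1, had 134 and 116 counts in HC 2 and HC 3, 0 in the other 3 and 141 in KMC 2. Gm14038 on chromosome 2 had 205 and 178 counts against 2 in each of the other 3. Serpina3a, on chromosome 12 as the Ighv locus is, had 34 and 12 counts against 0 in each. Ifi213 on chromosome 1, an interferon-inducible gene, had 0 and 1 counts in HC 2 and HC 3 and 50, 192 and 74 in HC 1 and the controls. These genes were chosen after their values were seen, and their cause was not tested.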
